A study of Rattus norvegicus with 3 samples.

Results

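The genes followed here burn fuel in mitochondria: fatty acid oxidation enzymes, the pyruvate carrier and citrate cycle enzymes, subunits of the respiratory chain and of ATP synthase, and the uncoupling proteins. Members were taken by name, 28 listed genes together with every gene whose symbol starts with Atp5, Nduf, Uqcr, Sdh, or Cox followed by a digit of the respiratory subunits. All 28 listed genes were on the arrays and the prefixes added 30, so that 58 of 5654 genes were members: 18 of beta-oxidation, 7 of pyruvate entry and the citrate cycle, 30 of the respiratory chain and ATP synthase, and 3 uncoupling proteins. No gene starting with Uqcr, the complex III subunits, was among them. Of the 58, 47 carried a fitting symbol in the files and 11 were found through a current or former symbol, such as Mpc1, listed as Brp44l. Another 2 probes fitted the prefix Sdh by an old symbol but belong to serine dehydratase and sorbitol dehydrogenase, and were left out. The label holds with exceptions known from the genes' biology: Ehhadh and Hsd17b4 act in peroxisomes, Mdh1 in the cytosol, and Ndufaf3 builds complex I without being part of it.

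Liver RNA came from male rats of 2 inbred strains and 2 ages. The groups were spontaneously hypertensive rats (SHR) of 1 month and of 3 months and normotensive Wistar Kyoto rats (WKY), whose livers were pooled at each of these ages and no transgene or treatment is named. How many animals gave each RNA is not stated in the labels. A 2-colour array set SHR against WKY at 1 month, another at 3 months, and another set SHR of 3 months against SHR of 1 month. Each comparison is 1 array, without a replicate or a swap of dyes. No p-value was computed, and a probe's dye bias cannot be told apart from a difference between the 2 RNAs. The age array shares its RNA groups with the strain arrays.

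Values are log2 ratios after loess normalisation, in which 0 is the middle of the array at that brightness, with the SD between the 2 spots of each member as the only error. That SD, pooled over all probes, was 0.056, 0.046 and 0.052 on the 1-month, 3-month and age arrays, and does not cover differences between animals. Intensities include an offset of 50 and are compared between the 2 RNAs of 1 array only. On the 3-month array the background model lifted dim spots much further: the lowest intensity of any gene there was 429.7 in SHR and 432 in WKY, beside 55.7 in SHR and 52.0 in WKY at 1 month, so that ratios of dim genes at 3 months are drawn toward 0. Median raw intensity was 1448 to 3460 over the channels, and 57 or 58 of the 58 members exceeded the 99th percentile of 512 empty spots in both channels on each array. The exception was Hadhb, a trifunctional protein subunit, on the 3-month and age arrays. On the 3-month array 985 spots lay in a patch of bright local background, among them spots of 7 members, against 46 spots on the 1-month array and 0 on the age array. The direction of the age array is not settled: its headers name the second channel as SHR of 3 months, while the labels give that group the dye that WKY had on the strain arrays, where WKY was the first channel. Its ratios are given as the headers have them, SHR of 3 months over SHR of 1 month, and every sign on it would turn if the dyes of the labels were right. Of 15 hepatocyte markers, 14 were measured, and their summed intensity was 120006 in SHR and 125610.3 in WKY at 1 month, 110886 in SHR and 117661 in WKY at 3 months, and 88408 in SHR of 3 months and 98072 in SHR of 1 month on the age array. Single hepatocyte genes differed as much as the lowest members: albumin (Alb) had log2 ratios of -1.01 at 3 months and -1.10 on the age array, the iron carrier transferrin (Tf) -0.99 on the age array, and the protease inhibitor Serpina1 -0.71 at 1 month. Others lay above 0, with Tat at 0.38 at 3 months and 0.49 on the age array. Over the 14 markers the medians were 0.06, -0.02 and -0.07 on the 1-month, 3-month and age arrays. Of these markers, 9, 7 and 5 lay above 0. In bulk tissue, fewer cells of a type and less RNA per cell cannot be told apart.

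Pyruvate made from sugar enters mitochondria through the pyruvate carrier and feeds the citrate cycle, while fatty acids enter through the carnitine shuttle and are shortened by beta-oxidation. Both routes hand electrons to the respiratory chain, which pumps protons, and ATP synthase uses the returning protons to make ATP. Uncoupling proteins let protons or other ions leak back across the membrane. Liver relies on fatty acid oxidation during fasting and turns part of the product into ketone bodies.

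Few members differed by the limit of 1.5-fold, a log2 ratio of 0.585 in either direction. At 1 month 2 of 58 members were lower in SHR, Idh3b and Cox6c, where 2.43% of all 5648 genes measured were, and 0 members were higher, against 0.195% of all genes. At 3 months 2 were lower in SHR, Mpc1 and Ucp1, against 1.5% of all 5615 genes, and 0 were higher, against 0.588%. On the age array 4 were lower in SHR of 3 months by the headers, Mpc1, Ucp1, Ucp2 and Idh3b, against 5.4% of all 5650 genes, and 0 were higher, against 2.07%. With the sign turned these would be 4 higher and 0 lower. The members' shares, 3.45%, 3.45% and 6.9% lower, were near those of all genes. The choice of scaling set the split of calls: with plain median centring, which keeps the trend with brightness, 6 members were higher and 4 lower at 1 month, 5 higher and 3 lower at 3 months, and 8 higher and 6 lower on the age array.

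Most members lay close to equal between the RNAs. Their median log2 ratio was -0.018, -0.049 and 0.007 on the 1-month, 3-month and age arrays, beside -0.011, -0.014 and -0.008 over all genes, and their SD across genes was 0.245, 0.245 and 0.353, beside 0.233, 0.223 and 0.326. Within 1.2-fold lay 46, 48 and 34 of the 58 members, which is 79.3%, 82.8% and 58.6%, beside 80.1%, 79.6% and 62.4% of all genes. With the processing reported, 53 members stayed under 1.5-fold on every array. The share of all genes that did so was not counted. The 2 strain arrays share no RNA by the labels, and 38 of 58 members, 65.5%, had the same sign on both, beside 69.6% of the 5610 genes measured on both. SHR was the second channel on both, so a probe's dye bias would also give a shared sign. The members nearest the limit were Cox6c at -0.63 inside and Atp5f1a at -0.48 outside at 1 month, Ucp1 at -0.85 inside and Idh3g at -0.56 outside at 3 months, and Idh3b at -0.95 inside and Cox6a1 at 0.48 outside on the age array. At 3 months Idh3g was past the limit in 6 of 9 alternative ways of processing, down to -1.03 in the authors' deposited table. The filters and the averaging left it unchanged, so its place outside rests on the processing reported.

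**Figure D1:**
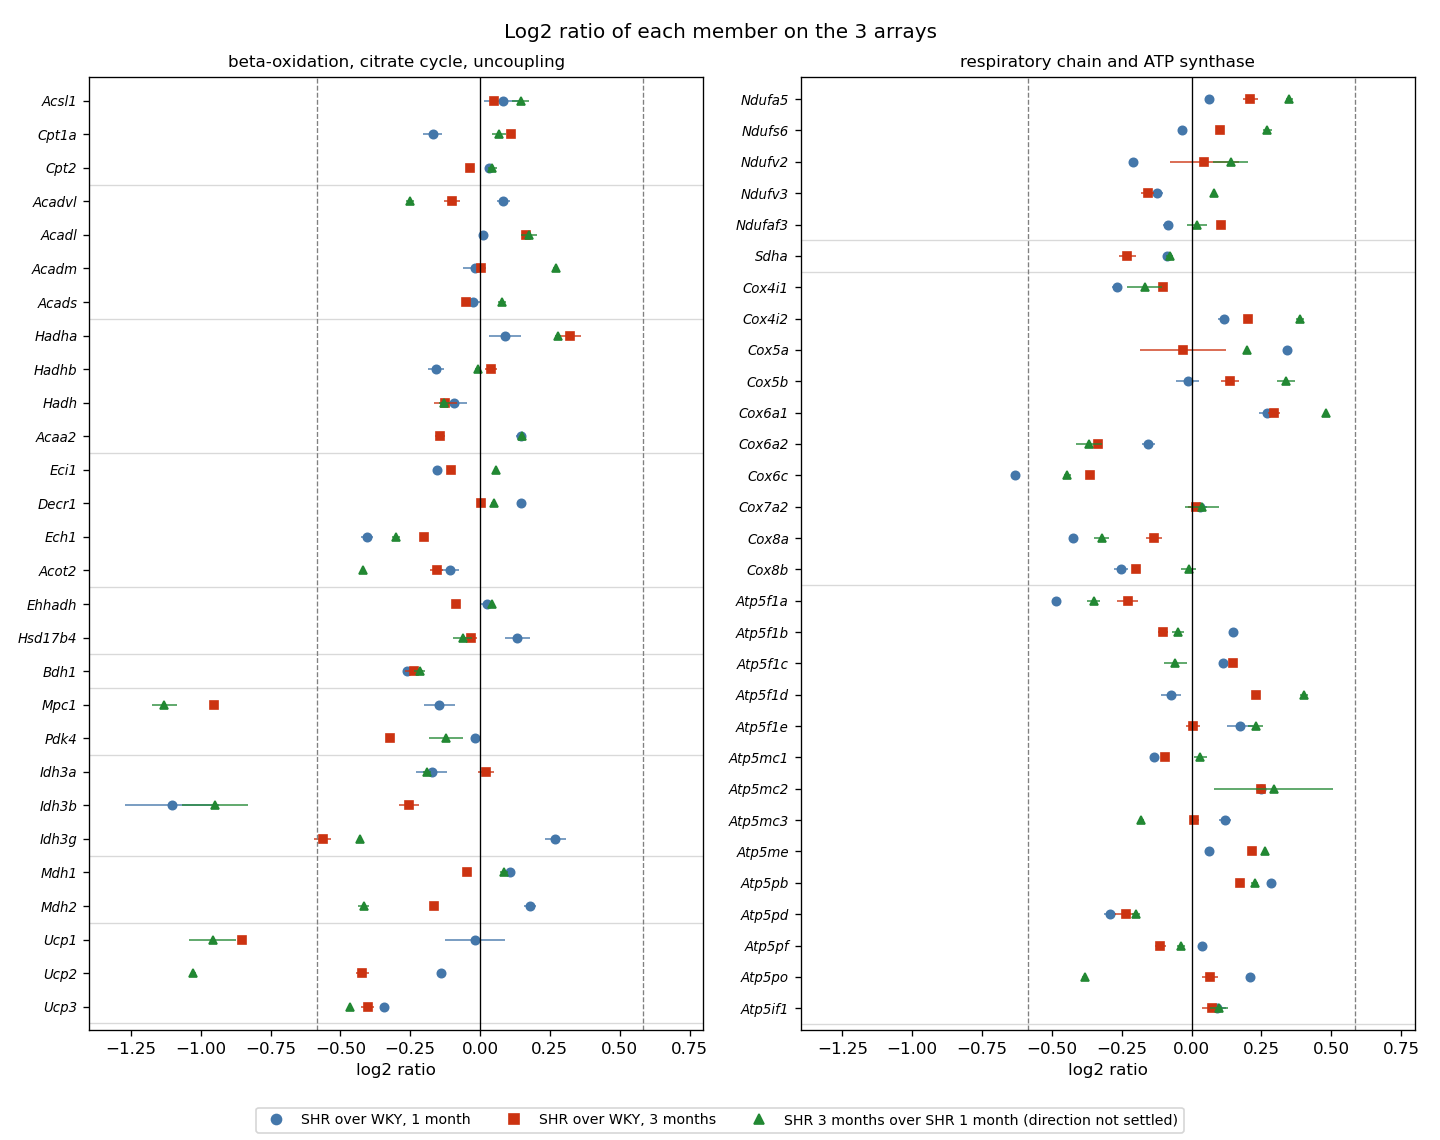
Log2 ratio of each of the 58 members (horizontal axis) on the 1-month strain array (circles, SHR over WKY), the 3-month strain array (squares, SHR over WKY) and the age array (triangles, SHR 3 months over SHR 1 month by the headers), with lines joining the values of the 2 spots, grey lines parting the roles, and dashed lines at 1.5-fold. Points past the left dashed line belong to Mpc1, Idh3b, Ucp1, Ucp2 and Cox6c, and no point lies past the right one.

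Promoters of members the results turn on are printed from RefSeq's table for the rat reference assembly GRCr8, which is of neither strain studied, from 5′ to 3′ on the gene's strand and ending at the base before the annotated gene. Mpc1 (chr1:54996980-54997208, minus strand), Ucp1 (chr19:41721422-41721671, minus strand) and Ucp2 (chr1:164251123-164251372, plus strand) are shown because their ratios were among the lowest of the members. Ndufa5 (chr4:53971236-53971485, minus strand), a complex I subunit with positive ratios, is shown for its match to the NRF1 motif. Capitals mark matches to the motifs searched. For Mpc1 the 229 bases outside the annotated gene are printed, while the search covered all 250 of the table's bases before the start.
Mpc1: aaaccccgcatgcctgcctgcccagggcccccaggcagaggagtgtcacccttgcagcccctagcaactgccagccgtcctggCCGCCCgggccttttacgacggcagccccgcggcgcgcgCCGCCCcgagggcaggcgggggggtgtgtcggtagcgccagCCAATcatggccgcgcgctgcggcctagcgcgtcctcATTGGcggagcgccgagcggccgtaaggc
Ucp1: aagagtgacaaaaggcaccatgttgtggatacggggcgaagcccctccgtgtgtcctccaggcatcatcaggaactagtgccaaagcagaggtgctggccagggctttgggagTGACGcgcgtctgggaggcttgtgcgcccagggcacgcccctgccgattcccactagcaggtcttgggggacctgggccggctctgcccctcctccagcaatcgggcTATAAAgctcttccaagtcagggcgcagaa
Ucp2: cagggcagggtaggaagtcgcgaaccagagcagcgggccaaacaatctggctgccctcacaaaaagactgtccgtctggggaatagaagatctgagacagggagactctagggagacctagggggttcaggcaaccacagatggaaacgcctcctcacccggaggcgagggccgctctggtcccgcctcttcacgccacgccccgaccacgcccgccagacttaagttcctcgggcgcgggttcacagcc
Ndufa5: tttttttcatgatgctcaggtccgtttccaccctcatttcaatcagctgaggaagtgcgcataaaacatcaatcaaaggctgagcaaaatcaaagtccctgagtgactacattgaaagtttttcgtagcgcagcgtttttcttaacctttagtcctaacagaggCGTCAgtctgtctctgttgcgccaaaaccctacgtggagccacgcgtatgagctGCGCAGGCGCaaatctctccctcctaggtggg
In the Mpc1 promoter the capitals are 2 SP1 motifs and 2 CCAAT boxes, and in the Ucp1 promoter a CREB site and a TATA box that begins 30 bases before the start. The Ucp2 window held none of the motifs, and that of Ndufa5 held an NRF1 motif and a CREB site.

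The table held promoters for 49 members, and the 250 bases before the start were searched on both strands, with matches of different motifs allowed to overlap. NRF1, a factor known to drive respiratory chain genes, has a motif searched here as GCGC, any base, TGCGC. It occurred in 7 of 49 member promoters, 14.3%, beside 4.17% of all 27457. These 7 were Ndufa5, Ndufs6, Ndufv3, Sdha, Atp5mc2, Atp5me and Atp5po, all from the 26 respiratory chain and ATP synthase promoters. The ETS motif CCGGAAG, bound by the respiratory regulator NRF2, was in 11, 22.4%, beside 7.74% of all promoters, and among these were Idh3b, Idh3g, Mdh2 and Atp5f1a. The CREB core site TGACG was in 28.6% of member promoters beside 19.0% of all, the ERR motif AAGGTCA in 6.12% beside 3.77%, the SP1 motif GGGCGG in 49.0% beside 32.4%, and CCAAT in 40.8% beside 34.3%. TATAAA was in 3 member promoters, Ucp1, Cox8b and Ndufs6, 6.12% beside 13.1% of all. The PPAR direct repeat, AGGNCA given again after any base, was in 0 of 49, beside 0.353% of all. Member promoters were also richer in G and C, with a median of 59.6% beside 52.0%. A match describes letters and shows no binding.

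Mpc1, which with Mpc2 forms the carrier that brings pyruvate into the matrix, was past 1.5-fold lower on the 3-month and age arrays under every way of processing tried. Its gene lies at chr1:54985305-54996979 (GRCr8). At 1 month its intensity was 4326 in SHR and 4787 in WKY, a log2 ratio of -0.15 with an SD between spots of 0.073. At 3 months it was 2782 in SHR and 5378 in WKY, 1.93-fold lower in SHR (log2 ratio -0.95, SD between spots 0.009). On the age array it was 2090.3 in SHR of 3 months and 4575 in SHR of 1 month by the headers, 2.19-fold lower (-1.13, SD 0.057). The dim RNA in the last 2 pairs is the one that both headers name SHR of 3 months, and both spots lay below 0 on each array. The 2 arrays share that RNA group and had it in the second channel, so they are not independent readings. By the labels' dyes the dim RNA on the age array would be SHR of 1 month. Among the 747 genes within 0.5 log2 units of its brightness on the 3-month array, 1.87% were at least 1.5-fold lower and Mpc1 had the lowest ratio. Its ratio at 3 months ran from -1.12 to -0.91 over 9 alternative ways of processing. The filters and the averaging could not change it on either array, nor could leaving out the bright patch on the age array.

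Pdk4, the kinase that shuts pyruvate dehydrogenase and rises in fasting, had intensities of 3475 in SHR and 3518 in WKY at 1 month (log2 ratio -0.02), 2914 in SHR and 3640.1 in WKY at 3 months (-0.32), and 2258 in SHR of 3 months and 2458 in SHR of 1 month on the age array (-0.12). It stayed under 1.5-fold throughout. Of 13 other genes of pyruvate dehydrogenase and its kinases and phosphatases, 6 were measured and 0 passed 1.5-fold on any array. The lowest of these at 3 months was the phosphatase Pdp2 at -0.35.

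**Figure D2:**
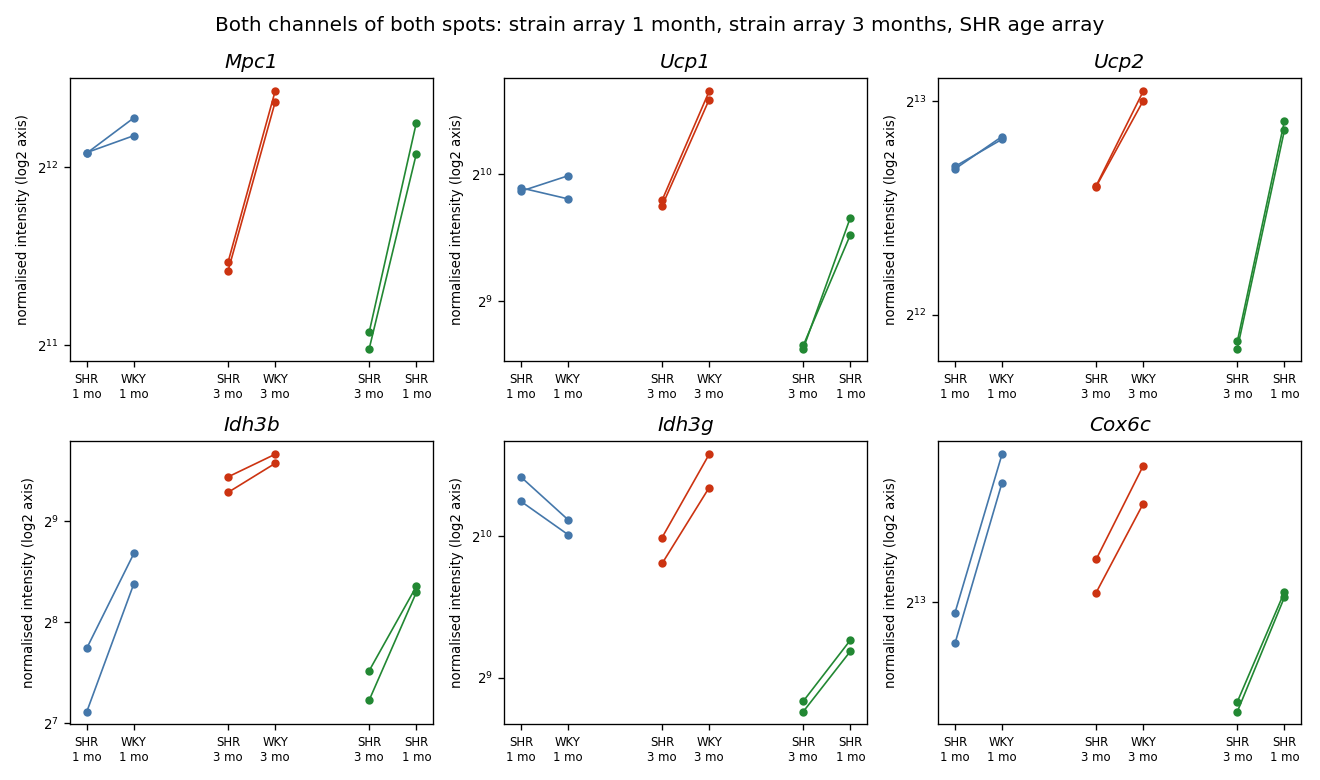
Normalised intensity (vertical, log2 axis of its own range for each gene) of Mpc1, Ucp1, Ucp2, Idh3b, Idh3g and Cox6c in both channels of the 3 arrays, with 1 line for each of the 2 spots. Mpc1 and Ucp1 lie close together in SHR and WKY at 1 month and apart at 3 months, while the lines of Idh3g slope in opposite directions at the 2 ages.

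The 3 subunits of NAD-dependent isocitrate dehydrogenase, a regulated step of the citrate cycle, had unlike ratios. Idh3a, the catalytic subunit, had log2 ratios of -0.17, 0.02 and -0.19 on the 1-month, 3-month and age arrays. Idh3b, a partner subunit at chr3:137934971-137940275, had an intensity of 172 in SHR and 369 in WKY at 1 month, 2.15-fold lower in SHR (-1.10, SD between spots 0.23), 656 in SHR and 783 in WKY at 3 months (-0.26, SD 0.045), and 166 in SHR of 3 months and 319.7 in SHR of 1 month on the age array, 1.93-fold lower by the headers (-0.95, SD 0.16). Idh3g, the other partner, had 1291 in SHR and 1072 in WKY at 1 month (0.27), 955 in SHR and 1412 in WKY at 3 months (-0.56), and 444 in SHR of 3 months and 599 in SHR of 1 month on the age array (-0.43).

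Idh3b was dim. At 1 month its log2 intensity was 7.98, and of the 412 genes within 0.5 log2 units of that, 12.1% were at least 1.5-fold lower in SHR with a median of -0.18, while 3 of the 412, Idh3b included, had a ratio as low as its own. On the 3-month array, leaving out the patch of bright background from the background model gave -0.55 in place of -0.26 for Idh3b and -0.82 in place of -0.56 for Idh3g. The authors' deposited table gave -0.69 for Idh3b at 3 months, so the size of its ratio there depended on the processing.

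Malate dehydrogenase closes the citrate cycle in the matrix (Mdh2) and shuttles reducing power in the cytosol (Mdh1). Mdh2 had intensities of 15185 in SHR and 13413 in WKY at 1 month (0.18), 12196 in SHR and 13689 in WKY at 3 months (-0.17), and 6606 in SHR of 3 months and 8821 in SHR of 1 month (-0.42). Mdh1 stayed within 0.11 of 0, at 0.11, -0.05 and 0.09. Over the 7 members of this group the median log2 ratio was -0.018, -0.256 and -0.417, and 6 of 7 lay below 0 at 3 months. Of 14 other enzymes of the citrate cycle and its cytosolic side routes, 7 were measured, malic enzyme (Me1) and cytosolic isocitrate dehydrogenase (Idh1) among them, and 0 passed 1.5-fold on any array, with citrate synthase (Cs) at -0.12, -0.02 and 0.06.

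The 3 uncoupling proteins lay below 0 on both strain arrays, although Ucp3 turned to 0.48 and 0.26 with median centring and Ucp1 was close to 0 at 1 month. Ucp1, the heat-making uncoupler of brown fat at chr19:41713350-41721421, had an intensity of 943 in SHR and 954 in WKY at 1 month (log2 ratio -0.02, SD between spots 0.15). At 3 months it had 875 in SHR and 1581 in WKY, 1.81-fold lower in SHR (-0.85, SD 0.015), and on the age array 397 in SHR of 3 months and 771 in SHR of 1 month, 1.94-fold lower by the headers (-0.96, SD 0.11). The SHR and WKY spots overlapped at 1 month and were apart at 3 months. Without the patch of bright background the 3-month ratio was -1.27.

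Ucp2, the widely expressed family member, had 6595 in SHR and 7264 in WKY at 1 month (-0.14), 6211 in SHR and 8322 in WKY at 3 months (-0.42, SD 0.029), and 3712 in SHR of 3 months and 7559 in SHR of 1 month on the age array, 2.04-fold lower by the headers (-1.03, SD 0.006). Ucp3, the muscle form, had ratios of -0.34, -0.40 and -0.46, the last of which turned to 0.43 with median centring, near the bright end of the arrays, with log2 intensities of 15.2 and 15.1 on the strain arrays. Its gene lies 10479 bases from Ucp2 on chromosome 1.

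Liver is not the main site of Ucp1 or Ucp3, so markers of other tissues were set beside them. The fat list holds the member Cox8b and the muscle list the member Cox6a2, so neither list is independent of the members. Of 11 markers of brown and white fat, 7 were measured and 0 passed 1.5-fold, with medians of -0.010, -0.046 and -0.277. Their summed intensity was 68291 in SHR and 70522 in WKY at 1 month, 74655 in SHR and 78640 in WKY at 3 months, and 56053 in SHR of 3 months and 56999 in SHR of 1 month. The fat markers ran from -0.43 (Plin1, of the lipid droplet) to 0.19 (Adipoq, an adipocyte hormone) at 1 month, from -0.38 (Adipoq) to 0.22 (Adrb3, the adrenergic receptor of fat) at 3 months, and from -0.55 (Lep, leptin) to 0.33 (Adrb3) on the age array. Of 11 muscle markers, 10 were measured, with medians of -0.099, 0.045 and 0.062 and summed intensities of 89758 in SHR and 96586 in WKY at 1 month, 92432 in SHR and 104057 in WKY at 3 months, and 72840 in SHR of 3 months and 80787 in SHR of 1 month. On the age array Myh7 was at -0.64 and Tnni3 at 0.64, and on the strain arrays 0 muscle markers passed 1.5-fold. The macrophage gene Lyz2, the 1 of 6 Kupffer cell markers measured, had 0.40, 0.42 and 0.37. Of 6 lymphocyte and NK cell markers 5 were measured, with medians of -0.23, -0.08 and -0.36. The lowest was Klrk1, an activating NK receptor, at -0.84, -0.32 and -1.12. All 6 stellate cell markers were measured, with medians of -0.05, -0.11 and -0.20. The lowest was Des, desmin, at -0.46, -0.41 and -0.60, while Rgs5 was the highest at 3 months (0.40) and on the age array (0.58). Of 3 red cell markers 2 were measured. The heme synthesis enzyme Alas2 was at -0.28, -0.16 and -0.61, and Hbb was at -0.21, -0.11 and 0.08. The 1 marker each of endothelium (Kdr) and bile duct (Epcam) was within 0.13 of 0. The summed intensities compare the 2 RNAs of an array and do not give the amount of a tissue. In SHR at 1 month the 14 hepatocyte markers summed to 120006, so fat and muscle probes were not dim beside them. The specificity of the marker probes was not tested. The part of other cell types in the ratios of the uncoupling proteins was not tested.

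Beta-oxidation had 0 of 18 members past 1.5-fold on any array, medians of -0.004, -0.043 and 0.047, and an SD over its genes of 0.152, 0.136 and 0.194, the smallest of the 4 groups on each array. Of the carnitine shuttle and activation genes, Cpt1a, the rate-setting transferase of the outer membrane, had intensities of 1099 in SHR and 1236 in WKY at 1 month (-0.17), 3278 in SHR and 3039 in WKY at 3 months (0.11), and 1275 in SHR of 3 months and 1217 in SHR of 1 month (0.07). Cpt2, its inner membrane partner, stayed between -0.04 and 0.04, and Acsl1, which activates long-chain fatty acids, had 0.08, 0.05 and 0.15. The 4 acyl-CoA dehydrogenases, which take the first step for chains of different length, spanned -0.03 to 0.08 at 1 month and -0.10 to 0.16 at 3 months. On the age array Acadvl, for very long chains, had -0.25 and Acadm, for medium chains, 0.27. Acadl, for long chains, had 0.01, 0.16 and 0.18.

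Among the later steps Hadha, the alpha subunit of the trifunctional protein, had 0.09, 0.32 and 0.28. Both of its spots on the 3-month array lay in the patch of bright background. Acaa2, the thiolase of the last step, had 0.15, -0.14 and 0.15. Of the auxiliary enzymes for unsaturated fatty acids, Ech1 had 4651 in SHR and 6156 in WKY at 1 month (-0.40), 4745 in SHR and 5450.4 in WKY at 3 months (-0.20), and 4295 in SHR of 3 months and 5291 in SHR of 1 month (-0.30). Decr1, the dienoyl-CoA reductase, had 0.15, 0.00 and 0.05. Acot2, a mitochondrial thioesterase, had -0.11, -0.16 and -0.42, and Bdh1, which makes the ketone body beta-hydroxybutyrate, had -0.26, -0.24 and -0.22, though with median centring it turned to 0.01 at 1 month and 0.10 on the age array. The peroxisomal enzymes Ehhadh and Hsd17b4 lay between -0.08 and 0.13 on all arrays. Of 30 other fatty acid oxidation genes, 21 were measured, and 1 passed 1.5-fold on 1 array, the acyl-CoA synthetase Acsl5 at 0.68 on the age array.

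The respiratory chain and ATP synthase had medians of 0.008, 0.013 and 0.034 over 30 members, and 1 of the 30 passed 1.5-fold on 1 array. Complex I, the entry point for electrons from NADH, was represented by 5 genes with medians of -0.086, 0.103 and 0.140. Ndufa5 had 28067 in SHR and 26855 in WKY at 1 month (0.06), 29412 in SHR and 25417 in WKY at 3 months (0.21), and 21414 in SHR of 3 months and 16795 in SHR of 1 month (0.35). Ndufs6, another subunit, had -0.03, 0.10 and 0.27, and Ndufv2, of the NADH-binding module, -0.21, 0.05 and 0.14. The 5 genes were above 0 on the age array by the headers, although Ndufv2 came to 0 under 1 alternative. Sdha, the flavoprotein of complex II, had -0.09, -0.23 and -0.08, with both spots on the 3-month array in the bright patch. With median centring it turned to 0.78, 0.49 and 0.97.

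Complex IV, cytochrome c oxidase, ran from Cox6c at the bottom to the Cox5a and Cox6a1 subunits at the top. Cox6c, a small nuclear-coded subunit at chr7:69014410-69027145, had 7628 in SHR and 11831 in WKY at 1 month, 1.55-fold lower in SHR (-0.63, SD between spots 0.006). It had 8804 in SHR and 11315 in WKY at 3 months (-0.36), with both spots in the bright patch, and 6148 in SHR of 3 months and 8366 in SHR of 1 month (-0.44). Its ratio at 1 month was -0.46 to -0.64 over the alternatives. The 6 of 9 that kept it past 1.5-fold all used the same global loess, and the filters and the averaging left it unchanged. It fell under 1.5-fold with median centring (-0.46), loess within subgrids (-0.47) and the authors' deposited table (-0.47). Cox5a had 0.34, -0.03 and 0.20, and its 2 spots at 3 months were -0.18 and 0.12.

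Subunits with paired tissue forms gave no common direction. Cox6a1, the form of liver and most tissues, had 1060.2 in SHR and 879 in WKY at 1 month (0.27), 1809 in SHR and 1474 in WKY at 3 months (0.29), and 997 in SHR of 3 months and 714 in SHR of 1 month (0.48), while Cox6a2, the heart and muscle form, had -0.15, -0.34 and -0.37. With median centring Cox6a2 turned to 0.33, 0.03 and 0.25. Cox8a, the liver form, had -0.43, -0.13 and -0.32, and Cox8b, the form of muscle and brown fat, -0.25, -0.20 and -0.01. Cox4i1, the common form, had -0.27, -0.10 and -0.17, and Cox4i2, the lung form, 0.12, 0.20 and 0.39. The liver forms therefore lay on both sides of 0, as did the other forms. In each pair the form of other tissues had the brighter probe. Raw SHR intensities at 1 month were 21037 for Cox6a2 and 814 for Cox6a1, and 6028 for Cox8b and 664 for Cox8a. They were 2094 for Cox4i2 and 366 for Cox4i1. The specificity of these probes, of the Ucp1 probe and of the bright Ucp3 probe was not tested.

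ATP synthase had 14 members, with medians of 0.102, 0.039 and -0.003 and 0 past 1.5-fold. Atp5f1a, the alpha subunit of the catalytic head, was the lowest at 1 month, with 276 in SHR and 386 in WKY (-0.48), and had -0.23 and -0.35 on the other arrays. Its partner Atp5f1b, the catalytic beta subunit, had 0.15, -0.10 and -0.05. Atp5pb, of the peripheral stalk, had 10195 in SHR and 8374 in WKY at 1 month (0.28), 8347 in SHR and 7394 in WKY at 3 months (0.17), and 7669 in SHR of 3 months and 6555 in SHR of 1 month (0.23). Its stalk neighbour Atp5pd had -0.29, -0.23 and -0.20, though with median centring it turned to 0.08, 0.11 and 0.25, and Atp5po, the subunit that joins stalk and head, had 0.21, 0.07 and -0.38. Atp5f1d, the delta subunit of the head, had -0.08, 0.23 and 0.40, and Atp5me, a membrane subunit, 0.06, 0.22 and 0.26. The 3 genes for the c ring protein, Atp5mc1, Atp5mc2 and Atp5mc3, had -0.13, 0.25 and 0.12 at 1 month and -0.10, 0.25 and 0.01 at 3 months.

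**Figure D3:**
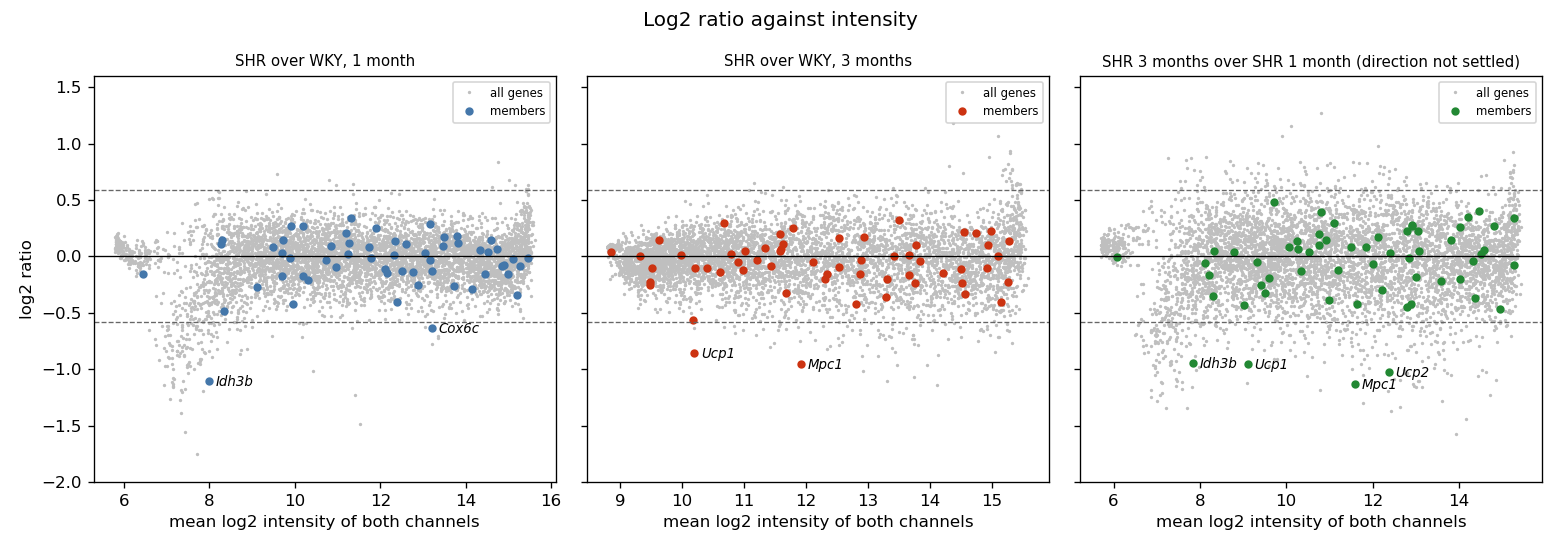
Log2 ratio (vertical) against the mean log2 intensity of both channels (horizontal) for all genes (grey) and the 58 members (coloured) on the 3 arrays, with dashed lines at 1.5-fold. On the 1-month array Idh3b, at a log2 intensity of 7.98, lies where many dim genes sit below 0, whereas Mpc1 and Ucp1 at 3 months lie below nearly all genes of their brightness.

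The strain ratio at 3 months minus that at 1 month sets the 2 ages side by side. In dim genes such as Idh3b this difference is not like for like, because the background model drew their ratios further toward 0 at 3 months. The difference was at least 1.5-fold lower for 3 of 58 members, Mpc1 at -0.80, Ucp1 at -0.84 and Idh3g at -0.83, against 1.12% of 5610 genes. It was at least 1.5-fold higher for 1 member, Idh3b at 0.85, against 1.71%. The group medians of this difference were -0.303 for pyruvate entry and the citrate cycle, -0.283 for the uncoupling proteins, -0.027 for beta-oxidation and 0.036 for the respiratory chain and ATP synthase, beside 0.008 for all genes. For Mpc1 it ran from -0.99 to -0.72 over the settings, for Ucp1 from -1.41 to -0.71, for Idh3g from -1.18 to -0.73, and for Idh3b from 0.55 to 1.28. For Idh3b it was 0.55, under the limit of 0.585, with loess within subgrids, without background correction and without the bright patch.

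**Figure D4:**
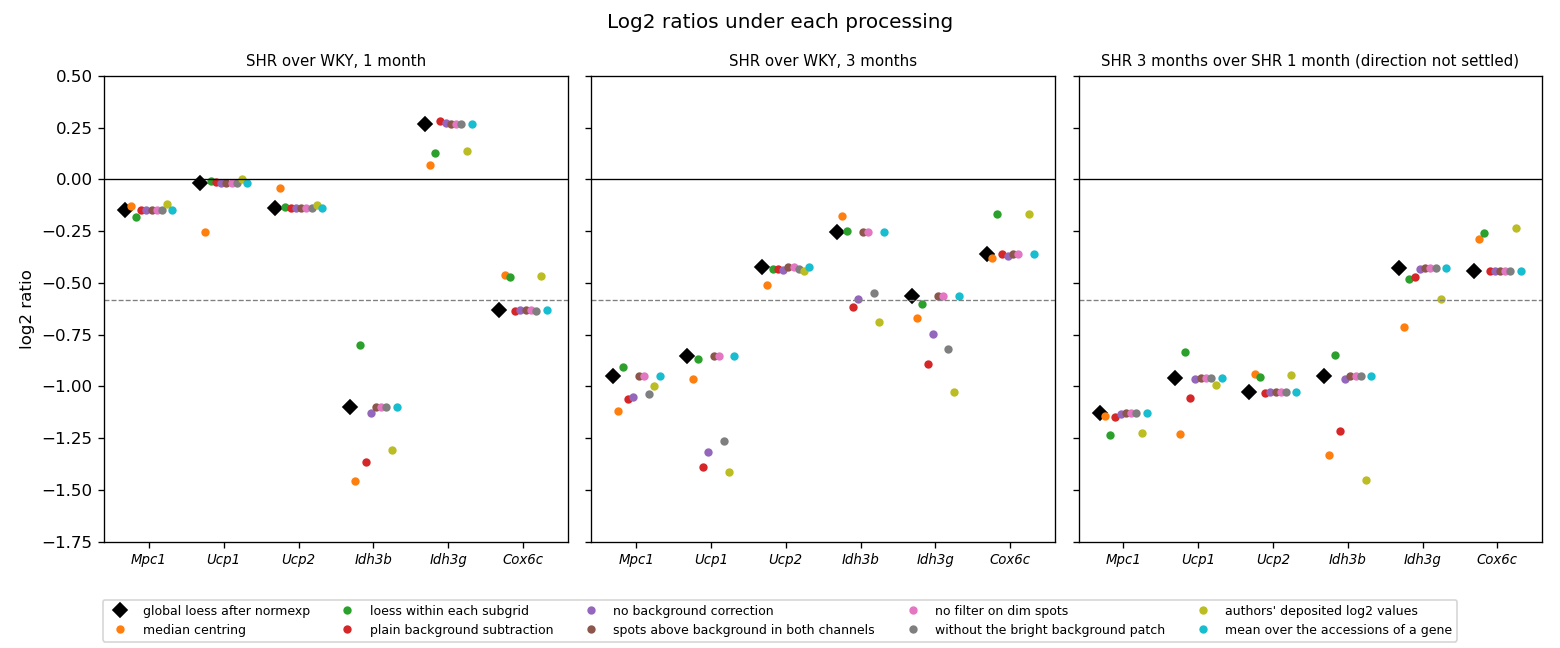
Log2 ratios (vertical) of Mpc1, Ucp1, Ucp2, Idh3b, Idh3g and Cox6c on the 3 arrays under each way of processing, with the reported value as a black diamond, alternatives as coloured points, and a dashed line at 1.5-fold lower. Mpc1 at 3 months stays between -1.12 and -0.91, while Idh3b and Idh3g at 3 months cross the line.

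Regulators and partners of the pathway showed few differences of that size. Of 18 regulators, 9 were measured and 0 passed 1.5-fold. Tfam, which packages and transcribes mitochondrial DNA, had 0.37, 0.33 and 0.56, Ppargc1a, the coactivator that drives mitochondrial genes, 0.12, 0.27 and 0.14, Ppara, the fasting-state receptor for fatty acids, -0.07, 0.07 and -0.01, and its partner Rxra -0.27, -0.11 and -0.53. Of 15 other targets of that receptor, 7 were measured and 0 passed the limit, with Fgf21, a hepatic fasting hormone, at 0.33 at 3 months. Of 14 mitochondrial carriers and channels 11 were measured, of 12 cytochrome c and assembly genes 4, and of 5 ketone body genes 2, with 0 past 1.5-fold in each. The citrate carrier Slc25a1 had -0.31 at 1 month, the channel Vdac1 -0.41, and the adenine nucleotide carrier Slc25a5 0.14, 0.26 and 0.38.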

How the data were processed

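Each of the 3 arrays held 12288 spots with 2 spots per probe, 5690 probes in all. Per the file headers, the authors deposited raw and local background intensities for both channels, and ratio columns of the first over the second channel after a scaling of their own. At the median spot the authors' deposited log2 table lay near log2 of the second over the first net intensity. The median absolute difference was 0.00157, 0.00322 and 0.0035. Their Pearson correlation was only 0.756, 0.688 and 0.823, so the 2 were far apart at some spots. The medians of the authors' table were -0.005, 0.005 and 0.0008. Labels and headers state neither its scale, its centring nor its direction, nor the scanner software. Ratios were recomputed with limma 3.58.1 in R 4.3.3 (normexp, offset 50, then global loess, span 0.3). Loess removed median shifts of -0.51, -0.36 and -0.65, so all ratios are relative to genes of like brightness. A spot was used if either channel lay more than 2 SD above its local background, and the spots of a probe were averaged. Each member had 1 probe. Of the 58 members, 26 were matched by accession, 14 by current and 18 by former symbol, and positions are those of RefSeq for GRCr8. Bright local background means over 2 times the array median. The members, lists, limits and alternatives were chosen with earlier results of these data known. Members named are those past 1.5-fold on an array or in the change between ages, the 4 highest and 4 lowest of each group, those of opposite sign at the 2 ages, and a few others, paired forms among them, chosen after their values were seen, as were some genes of the pathway and marker lists. Most genes of these lists are not named, and a few are not reported. The alternatives changed the normalisation, the background correction, the filter, the patch, the source and the averaging. The steps were tested on simulated data. Python 3.11.15, numpy 2.4.6, pandas 2.3.3 and matplotlib 3.10.9 did the rest.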

Additional observations from a re-analysis of the deposited data

Results flagged for a closer look

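For 5 members the log2 ratio of SHR over WKY lay on opposite sides of 0 at the 2 ages, each beyond 2 times the pooled SD between spots. With 1 array per age the difference was not tested. How many of all genes met this rule was not counted, so the 5 are not shown to be particular to the members. Without the SD rule, 65.5% of members and 69.6% of all genes had the same sign at both ages. Idh3g, a subunit of NAD-dependent isocitrate dehydrogenase, had -0.56 at 3 months and 0.27 at 1 month. Mdh2, the mitochondrial malate dehydrogenase, had -0.17 at 3 months and 0.18 at 1 month, and the thiolase Acaa2 had -0.14 at 3 months and 0.15 at 1 month. Atp5f1b, the catalytic subunit of ATP synthase, had -0.10 at 3 months and 0.15 at 1 month. Cpt1a, the carnitine transferase, went the other way with 0.11 at 3 months and -0.17 at 1 month. With median centring Acaa2 and Cpt1a at 3 months and Atp5f1b at 1 month changed sign, to 0.07, -0.07 and -0.11.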

How the results depend on the processing

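No paired analysis was possible because each comparison is 1 array. With median centring, 4 members were lower and 6 higher at 1 month, 5 higher at 3 months and 8 higher on the age array, in place of 2, 0, 0 and 0. It moved the median over members to 0.0493 at 1 month and 0.0644 on the age array, that of the respiratory chain to 0.1016 and 0.1937, that of the uncoupling proteins to -0.0401 at 1 month and -0.5115 at 3 months, and at 3 months that of beta-oxidation to -0.0937 and of the citrate cycle group to -0.2034. Loess within subgrids left 1 member lower at 1 month and gave -0.4797 for the citrate cycle group and -0.8358 for the uncoupling proteins on the age array. Plain subtraction gave 5 lower members and -0.3553 for the citrate cycle group at 3 months, and -1.0317 for the uncoupling proteins on the age array. At 3 months the citrate cycle group stood at -0.3569 without background correction and -0.3476 without the bright patch, which left 52 of 58 members. The authors' deposited log2 table gave 1 lower member at 1 month, 4 at 3 months, 0.0657 for the respiratory chain at 3 months, and -0.5279 and 0.1117 for the citrate cycle group and the respiratory chain on the age array. The cause of these shifts was not tested. Another 164 summary values counted as unmoved: medians that shifted by less than the pooled SD between spots, and counts at most 1.5 times apart. That rule takes in 6 lower members in place of 4 on the age array with median centring. The filters and the averaging left every summary value as reported. No ratio past 1.5-fold changed sign. With plain subtraction Ucp1 at 3 months had -1.39 in place of -0.85, Idh3b -0.62 in place of -0.26, and Hadhb, at the floor of that array, -1.43 in place of 0.04.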
